A study of Mus musculus with 5 samples.

Results

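Cartilage-like cells were a small set of stromal cells among those sorted by tdTomato from mouse femurs and profiled singly by RNA sequencing. They were chosen by their own counts. A cell had to have at least 500 genes, at least 1000 unique molecular identifiers (UMIs, each counting 1 captured RNA molecule), under 25% mitochondrial UMIs and no UMI of Ptprc, the pan-leukocyte gene. It also had to show at least 3 of the 7 genes Col2a1, Acan, Col9a1, Hapln1, Cnmd, Snorc and Matn3. There were 281 such cells among the 47829 cells that passed the quality limits, of 57968 deposited. Of these 281, 274 came from 1 library, the marrow of 18-month-old mice after ablation, and nearly everything below is about those 274 cells.

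All mice carried Lepr-cre and R26R-tdTomato, so the reporter marks cells in which the leptin receptor gene has driven Cre, and their descendants. Each of the 5 groups is a single library. The aged-injury mice were 18 months old and were sampled 1 week after 1 marrow ablation. The aged mice were 18 months old and uninjured. The naive mice were 15 weeks old, with 1 ablation at 13 weeks. The exhausted mice were 15 weeks old, with ablations at 9 and 13 weeks. The control mice were 15 weeks old and uninjured. Before dissociation the distal growth plates were taken off and the proximal ends of the femurs were cut away, per the labels. The number of animals behind a library is not given.

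Chondrocytes are the cells of cartilage. They lay down a matrix of type II, IX and XI collagen and of the proteoglycan aggrecan, under the transcription factor SOX9 and its partners SOX5 and SOX6. In growth plates and in fracture callus, chondrocytes stop dividing, enlarge and switch to type X collagen. These hypertrophic cells secrete Indian hedgehog, and cartilage of this kind is then replaced by bone.

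With 1 library a group there is no test between groups, so levels and shares are given with 95% counting intervals, which cover counting error only and no difference between mice, surgeries or library preparations. The aged-injury library held 224155538 UMIs and the other libraries 58895655 to 95397522. Cells that passed had medians of 9512 UMIs in aged-injury and 6671 to 8410 in the others, so the depth and any batch of the aged-injury library cannot be told apart from its group. Aged-injury was sampled 1 week after ablation, and naive and exhausted 2 weeks after the last one. Between aged-injury and these young libraries, age and time after ablation therefore cannot be told apart. Levels below are sums of UMIs over cells, scaled to 1000000 UMIs of those cells (CPM). UMI counts come without a gene length, so levels are compared between cells and not between genes.

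Cartilage-like cells were found almost entirely in aged-injury. They were 274 of its 19326 Ptprc-negative cells, a share of 1.42% (1.26% to 1.59%, exact Clopper-Pearson interval). Aged had 0 of 7053, which allows a share of up to 0.0425%. Naive had 3 of 4247, a share of 0.0706% (0.0146% to 0.206%). Exhausted had 4 of 3557, a share of 0.112% (0.0306% to 0.288%). Control had 0 of 7493, which allows a share of up to 0.0400%. The aged-injury share lay above the interval or the limit of each other library. When every cell was thinned to 2000 UMIs, 175 cells of aged-injury still met the rule, against 0 in aged, 2 in naive, 2 in exhausted and 0 in control.

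**Figure D1:**
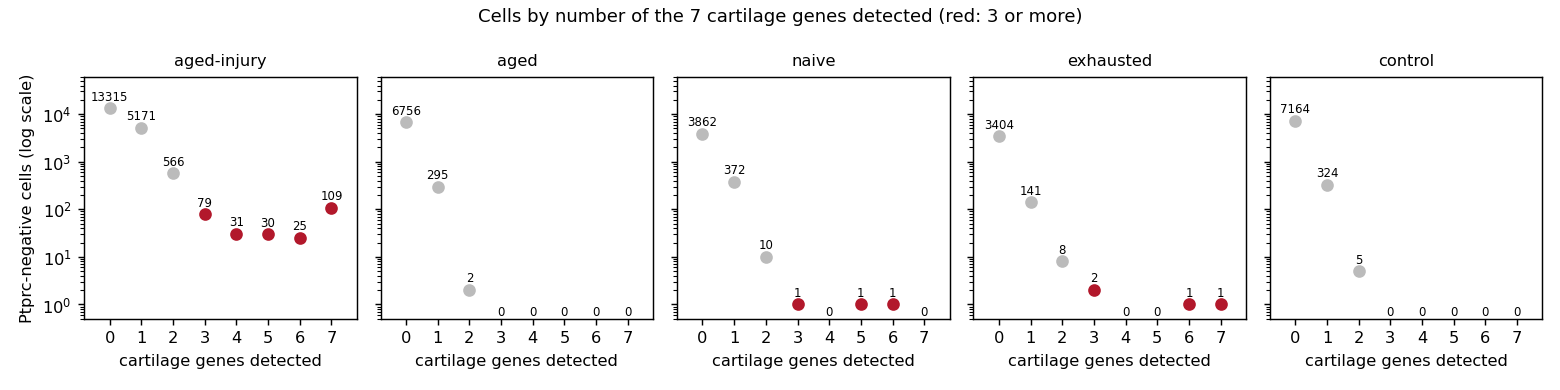
Number of Ptprc-negative cells (y axis, log scale) by how many of the 7 cartilage genes had a UMI (x axis), 1 panel per library, with points for cells and the count above each point; red points meet the rule. In aged-injury the counts fall to 25 cells with 6 genes and stand at 109 cells with all 7, while aged and control have no cell above 2 genes.

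Fewest cells showed 6 of the genes, and more showed all 7, the highest number possible. In aged-injury, 5171 Ptprc-negative cells showed 1 of the 7 genes, 566 showed 2, 79 showed 3, 31 showed 4, 30 showed 5, 25 showed 6 and 109 showed all 7. The summed level of the 7 genes, which chose the cells, had medians of 3.08 UMIs per 10000 in cells with 2 genes, just outside the rule, and 8.23 in cells with 3, just inside it. The median was 30.4 with 4 genes, 126 with 5, 433 with 6 and 963 with 7. The level thus rose by steps and ranges overlapped, with up to 369 at 4 genes and down to 54.3 at 7. Among the 79 cells with 3 genes, Col2a1 was found in 66, Acan in 58, Hapln1 in 44, Col9a1 in 35, Matn3 in 17, Snorc in 10 and Cnmd in 7. Cells with more of the genes were also deeper, with a median of 17459 UMIs at 3 genes and 32138 at 7.

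Members had deep profiles. Their median was 23848 UMIs and 4529 genes per cell, against 9404.5 UMIs and 3078 genes in the other Ptprc-negative cells of aged-injury. The median mitochondrial share was 6.11% in cartilage-like cells and 5.77% in the others. Doublets were not removed, and 21 members held over 2 times the member median, up to 75042 UMIs. Cxcl12, the chemokine that marks reticular stroma, had a median of 2.65 UMIs per 10000 in members, against 229 in the other Ptprc-negative cells and 9.94 in Ptprc-positive cells. It reached 20 or more in 55 members, of which 44 had 3 or 4 of the genes and 11 had 5 to 7. The part of doublets in the sparse members was not tested.

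The label of cartilage was set beside cartilage genes that the rule did not use, by comparing cells with 5 to 7 of the genes with cells with 3 or 4. Both sets were chosen by the rule genes, and other cartilage genes may go with these. The values therefore describe the sets and do not test the label. Col9a2, a chain of type IX collagen, was found in 161 of 164 cells with 5 to 7 genes and in 35 of 110 with 3 or 4. Its median was 27.5 UMIs per 10000 (quartiles 8.75 and 44.1) in the fuller set, and 0 (upper quartile 0.438) in the sparser set. Chad, which encodes the cartilage leucine-rich repeat protein chondroadherin, was found in 155 of 164 and 31 of 110 of these cells. Its median was 30.9 in the fuller set and 0 in the sparser set. Comp, the cartilage oligomeric matrix protein, was found in 162 and 75 of them, with medians of 50.5 and 1.54. In Ptprc-positive cells of the same library, which had a median of 12256 UMIs, Col9a2 was found in 2.34% of cells, Chad in 2.92% and Comp in 7.02%. These Ptprc-positive cells were not a clean blood background, since Cxcl12 reached 20 or more UMIs per 10000 in 40.9% of them. Over the whole list of cartilage matrix genes outside the rule, 20 of 25 were at least 2-fold higher and 3 lower in cells with 5 to 7 genes than in cells with 3 or 4, where 5.31% of 10884 genes were higher and 17.8% lower. On these genes the cartilage label applied best to the 164 fuller cells. Among the 110 sparser cells Col9a2 and Chad were not found in most, while Comp was found in 75.

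The matrix genes of cartilage beyond the rule were far above the rest of the stroma. Against the other Ptprc-negative cells of aged-injury, 23 of 25 such genes were at least 2-fold higher in cartilage-like cells and 1 was lower, with a median log2 ratio of 4.58. The other cells had to show under 3 of the rule genes, and further cartilage genes may go with these. The counts are therefore description only, as are those of chondrocyte transcription factors and hypertrophic genes below. Some genes, such as Epyc and Col9a3, were under 5 CPM in the others and were measured only through the members. Over all 11050 genes with 5 CPM or more in either set, 6.31% were 2-fold higher and 17.7% were 2-fold lower, with a median log2 ratio of -0.27. That is 697 genes higher and 1952 lower, and relative to that median it would be 965 and 1406. Col9a3 had 1955 CPM in cartilage-like cells and 1.27 CPM in the others. Col11a1, a chain of type XI collagen, had 7358 CPM against 444 CPM, and other stroma also expressed it. Epyc, encoding the proteoglycan epiphycan, had 169 CPM and was found in 31.4% of members, against 0.0709 CPM and 0.0735% of the other cells. The rule genes themselves, given only as a description, had 40685 CPM of Col2a1, 4329 CPM of Col9a1 and 2894 CPM of Acan in the members.

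Transcription factors of chondrocytes differed less. Of 19 measured, 8 were higher and 2 lower, with a median log2 ratio of 0.61. Sox9 had 499 CPM in cartilage-like cells and 65.5 CPM in the other Ptprc-negative cells (7.62-fold, 7.34 to 7.91), and was found in 72.6% and 21.0% of them. By number of rule genes it was found in 41.8% of cells with 3 and 93.6% of cells with 7. In Ptprc-positive cells it was found in 15.8%. Sox6 had 110 CPM against 11.6 CPM. Sox5, its close relative, had 37.9 CPM against 26.6 CPM and stayed within 2-fold. Foxa2, a factor of maturing chondrocytes, had 10.5 CPM from 73 UMIs in members against 0.0236 CPM from 5 UMIs in the others. Runx2, the factor shared by hypertrophic chondrocytes and osteoblasts, had 466 CPM in cartilage-like cells and 604 CPM in the others.

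Genes of hypertrophic cartilage were higher in 12 of 18 cases and lower in 3, with a median log2 ratio of 1.90. Col10a1 had 10369 CPM in cartilage-like cells against 6.02 CPM in the others. Ihh had 175 CPM against 0.331 CPM, and in the other cells 45.7% of its UMIs came from 1 cell. Panx3, a channel protein of hypertrophic chondrocytes and osteoblasts, had 1609 CPM against 21.5 CPM. Pth1r, the receptor for parathyroid hormone-related protein, had 921 CPM against 108 CPM. Alpl, the phosphatase needed for mineral, had 2403 CPM against 454 CPM. The 3 lower genes of the list were Phex, with 118 CPM against 369 CPM, Vegfa, with 319 CPM against 694 CPM, and Ppp1r3c, with 3.88 CPM against 9.83 CPM.

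Among the enzymes that build the matrix, most stayed within 2-fold and more were higher than lower. Of 25 genes for making and sulfating glycosaminoglycan chains, 10 were higher and 1 lower. Xylt1, which starts the chains, had 234 CPM in cartilage-like cells and 23.8 CPM in the others. Slc26a2, the sulfate transporter, had 271 CPM and 64.2 CPM, and Papss2, which makes the sulfate donor, had 198 CPM and 36.2 CPM. Of 30 collagen-processing genes 9 were higher and 3 lower. Pcolce2, an enhancer of procollagen cleavage, had 580 CPM against 1.60 CPM, and the lysyl oxidase Loxl4 had 175 CPM against 6.16 CPM. Matrix proteases and their inhibitors had 2 higher and 4 lower of 16.

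Signalling genes were mixed. The hedgehog and PTHrP list had 5 higher and 2 lower of 12, the BMP and TGF-beta list 6 higher and 9 lower of 28, and the FGF and Wnt list 6 higher and 8 lower of 24. Frzb, a secreted Wnt antagonist first found in cartilage, had 760 CPM in cartilage-like cells against 7.83 CPM in the others. Inflammatory genes were lower in 12 of 14 cases, and Ptgs2, encoding cyclooxygenase-2, was 1 of the 2 that were higher, with 261 CPM against 61.7 CPM.

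Genes of reticular stroma were lower in cartilage-like cells in 20 of 20 cases, with a median log2 ratio of -2.41. Their summed level was 8178 CPM in members and 53472 CPM in the other Ptprc-negative cells, and none was at 0. Cxcl12 had 2777 CPM against 20895 CPM, Lepr 219 CPM against 1687 CPM, and Adipoq 318 CPM against 2622 CPM. Within the members the summed level was lower again in the fuller set, at 3594 CPM in cells with 5 to 7 genes and 18168.5 CPM in those with 3 or 4. All 10 endothelial markers, 7 of 8 pericyte and smooth muscle markers, 5 of 5 adipocyte markers and 7 of 7 blood cell markers that were measured were also lower. Their summed levels were 44.6, 168, 273 and 512 CPM in members, against 369, 912, 1015 and 1352 CPM in the others. Members differed in this. In the same order the levels were 51.8, 37.1, 85.1 and 39.0 CPM with 5 to 7 genes. With 3 or 4 genes they were 28.8, 453, 683 and 1544 CPM, so blood cell markers there were not below the others. Fibroblast, tendon and synovial markers had 4 higher and 3 lower of 12. They summed to 412 CPM with 5 to 7 genes, 2394 CPM with 3 or 4 and 1366 CPM in the others. Bone genes had 7 higher and 5 lower of 22, genes of resting and progenitor cartilage 5 higher and 4 lower of 12, cell division genes 2 higher and 0 lower of 20, and immediate early and stress genes 0 higher and 6 lower of 18. Col2a1 itself was found in 24.0% of the Ptprc-positive cells of this library, and whether this was free RNA or doublets was not tested.

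Set against the nearest kinds of stroma, most cartilage matrix genes were higher than in both. Reticular-type cells were 10448 cells with at least 4 of Lepr, Cxcl12, Adipoq, Kitl, Foxc1 and Ebf3 and under 3 of Sp7, Ibsp, Dmp1, Phex, Bglap and Alpl. Osteoblast-type cells were 654 cells with at least 3 of Sp7, Ibsp, Dmp1, Phex, Bglap and Alpl and under 4 of the reticular genes. Against reticular-type cells, 22 of the cartilage matrix genes were higher and 2 lower, with a median log2 ratio of 6.04, where 7.25% of 11086 genes were higher and 19.5% lower. Against osteoblast-type cells, 21 of 24 were higher and 0 lower, with a median log2 ratio of 5.78, where 11.2% of 10544 genes were higher and 6.14% lower. Of these 24, 4 had a count of 0 that was set to 3. Type XI collagen was shared, with Col11a2 at 2363 CPM in members and 2143 CPM in osteoblast-type cells, and Col11a1 at 7358 and 3576 CPM. Both reference sets had to show under 3 of the rule genes, so these counts are description only.

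Bone gene counts differed between these comparisons, but the choice of sets bears on them. Reticular-type cells had to show under 3 of Sp7, Ibsp, Dmp1, Phex, Bglap and Alpl, and osteoblast-type cells at least 3. Members had no such limit, and 72.6% of them showed 3 or more. Other bone genes may go with the choosing genes, so the counts that follow are description only. Leaving out the genes that chose the sets, 10 of 16 bone genes were higher in cartilage-like than in reticular-type cells and 0 lower, while against osteoblast-type cells 2 of 17 were higher and 9 lower. Col1a1, the main collagen of bone, had 29158 CPM in cartilage-like cells and 123313 CPM in osteoblast-type cells. The 2 bone genes that were higher were Omd, encoding osteomodulin, with 564 CPM against 163 CPM, and Smpd3, a sphingomyelinase needed for mineral, with 1255 CPM against 598 CPM. Hypoxia and glycolysis genes were higher than in osteoblast-type cells in 19 of 25 cases and lower in 1. Slc2a1, the glucose transporter, had 56.2 CPM against 8.02 CPM, and Pgk1, a glycolytic enzyme, had 344 CPM against 72.7 CPM. Against the whole of the other Ptprc-negative cells the same list had 9 higher and 5 lower. Outside the genes that chose the sets, reticular stroma genes were higher than in osteoblast-type cells in 8 of 14 cases and lower in 1. Inflammatory genes were higher in 7 of 12 and lower in 0. These lists were thus lower than in the rest of the stroma but not than in osteoblast-type cells. The reticular count is not independent of the choice. Osteoblast-type cells had to show under 4 reticular genes, while 62.4% of members showed 4 or more. The whole reticular list summed to 18168.5 CPM in members with 3 or 4 cartilage genes and 3594 CPM with 5 to 7. In osteoblast-type cells it summed to 2793 CPM. The inflammatory list summed to 2058, 781 and 524 CPM in the same order.

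**Figure D2:**
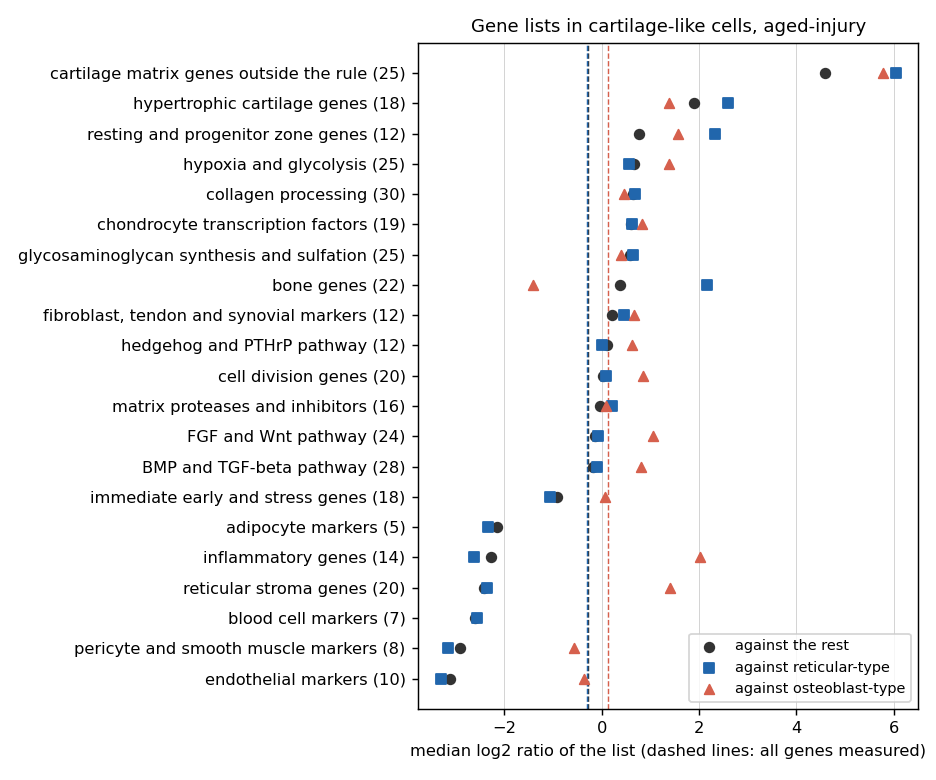
Median log2 ratio of each gene list (x axis) in cartilage-like cells of aged-injury against the other Ptprc-negative cells (circles), reticular-type cells (squares) and osteoblast-type cells (triangles), with the number of genes measured beside each list name and dashed lines at the median of all genes. The cartilage matrix genes lie furthest to the right in all 3 comparisons, at 4.58, 6.04 and 5.78.

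Beyond the lists, the genes furthest above the other Ptprc-negative cells were led by Ppp1r1b, an inhibitor of protein phosphatase 1, with 53.0 CPM in cartilage-like cells from 369 UMIs and 0.0520 CPM in the others from 11 UMIs. Fxyd3, a regulator of the sodium pump, had 81.8 CPM against 0.0851 CPM. Scin, an actin-severing protein, had 138 CPM against 0.676 CPM, and Capn6, a calpain without protease activity, had 356 CPM against 5.46 CPM. Capn6 was found in 70.1% of members and 2.26% of the other cells. The genes furthest below were led by Sntb1, a syntrophin, with 4.89 CPM in cartilage-like cells and 60.4 CPM in the others. Cbln1, a secreted synapse organiser, had 30.5 CPM against 301 CPM. Pparg, the transcription factor of fat cells, had 15.7 CPM against 122 CPM.

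Type X collagen split the members. Col10a1 was at 0 in 134 of 274 cells, and 100 cells had 10 or more UMIs per 10000 and held 99.7% of all Col10a1 UMIs of the members. Only 16 cells lay between 5 and 20 UMIs per 10000, so the boundary touched few cells, though Col10a1-high remains a range and not a type. Of the 100 Col10a1-high cells, 91 had 5 to 7 of the cartilage genes and 9 had 3 or 4. The 174 Col10a1-low cells were of both kinds, 73 with 5 to 7 genes and 101 with 3 or 4. Over all members, 4.67% of 10585 genes were at least 2-fold higher in Col10a1-high cells and 12.3% lower, but the sparse cells made up much of the low side. The comparison is therefore given within the cells with 5 to 7 genes, 91 against 73, which was chosen after the values were seen. There, 8.43% of 10240 genes were higher and 7.45% lower, with a median log2 ratio of 0.11.

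**Figure D3:**
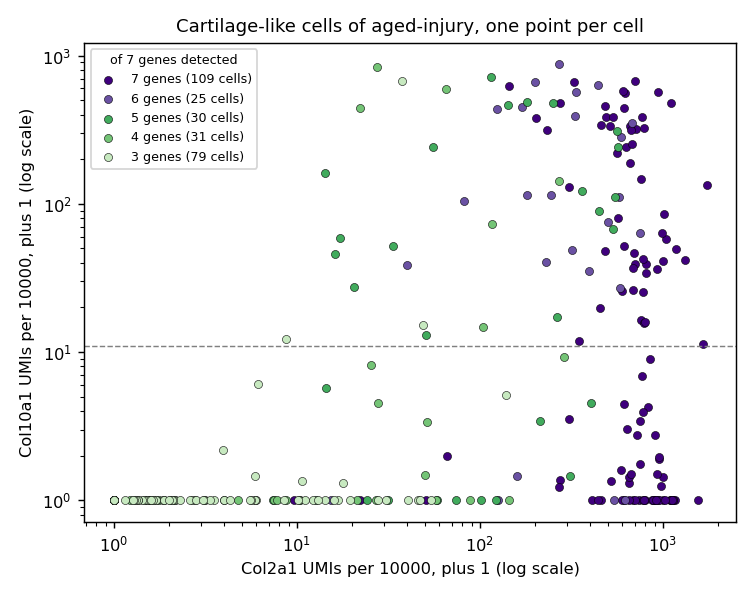
Col10a1 against Col2a1 in each of the 274 cartilage-like cells of aged-injury (UMIs per 10000 plus 1, both axes on a log scale), coloured by how many of the 7 cartilage genes were detected, with a dashed line at the boundary of 10 UMIs per 10000. Cells with high Col2a1 lie at Col10a1 of 0, above the line and at values between, with 16 members between 5 and 20 UMIs per 10000.

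The promoters of Col10a1 and of Ucma, which encodes a matrix-associated protein of upper growth plate cartilage and has the opposite pattern below, are shown because Col10a1 made the split and Ucma is a cartilage gene of its other side. They are the 250 bases before the RefSeq start of each gene on GRCm38.p6, plus strand, in lower case with the searched motifs in capitals. The Col10a1 window is chr10:34389731-34389980 and the Ucma window is chr2:4975872-4976121.
Col10a1: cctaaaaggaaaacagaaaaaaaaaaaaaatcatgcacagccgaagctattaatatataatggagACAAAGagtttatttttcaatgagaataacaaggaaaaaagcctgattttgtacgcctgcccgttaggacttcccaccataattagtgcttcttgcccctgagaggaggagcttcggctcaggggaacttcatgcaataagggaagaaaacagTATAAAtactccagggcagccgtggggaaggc
Ucma: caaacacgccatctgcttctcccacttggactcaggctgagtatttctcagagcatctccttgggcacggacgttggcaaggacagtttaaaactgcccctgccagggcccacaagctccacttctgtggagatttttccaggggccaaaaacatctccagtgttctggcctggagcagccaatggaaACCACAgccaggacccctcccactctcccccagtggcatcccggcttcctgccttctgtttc
The motifs were searched on both strands. The core of the TATA box was searched as TATAAA. Cores bound by SOX-type factors were searched as ACAAAG and, in a further search, as ACAATG. The core bound by RUNX factors was searched as TGTGGT, which reads ACCACA from the other strand. The Col10a1 window holds 1 TATAAA and 1 ACAAAG, and the Ucma window holds 1 TGTGGT on the other strand. Of 32851 promoters of the same length, 12.4% hold TATAAA, 16.5% ACAAAG, 10.7% ACAATG and 14.0% TGTGGT, so each match is common. Col10a1 also lies inside the RefSeq span of Nt5dc1, so reads of these genes may not be told apart.

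Within the fuller cells, more of the other hypertrophic genes were higher than lower in Col10a1-high cells, but the list was mixed. Of 16 measured besides Col10a1, 8 were higher, 2 lower and 6 within 2-fold. The median log2 ratio was 0.87, with an interval of -0.33 to 1.52 that takes in both signs. The 2 lower genes are not among those named here. Ihh had 410 CPM in Col10a1-high cells and 31.6 CPM in Col10a1-low cells (13.0-fold, 10.1 to 16.9), and was found in 72.5% and 11.0% of them, though 43.1% of its UMIs on the low side came from 1 cell. Mmp13, the collagenase of hypertrophic cartilage, had 9506 CPM against 1386 CPM. Ibsp, encoding bone sialoprotein, had 22078 CPM against 7622 CPM, with medians of 197 and 6.07 UMIs per 10000. Alpl had 3903 CPM against 1858 CPM. Mef2c, a transcription factor of hypertrophy, had 770 CPM against 297 CPM. Sox9 had 751 CPM against 466 CPM and stayed within 2-fold. The general cartilage genes Col2a1, with 52206 CPM against 67194 CPM, and Acan, with 3978 CPM against 3923 CPM, were similar on both sides.

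Ihh and the genes that hedgehog signalling is known to induce lay on opposite sides. Gli1, the hedgehog target and effector, had 1.48 CPM from 4 UMIs in Col10a1-high cells and 33.5 CPM from 69 UMIs in Col10a1-low cells, and was found in 4.40% and 46.6% of them. Ptch1, the hedgehog receptor and also a target, had 161 CPM against 389 CPM (2.42-fold lower, 2.15 to 2.72). Hhip, a hedgehog-binding inhibitor induced by the pathway, had 3.69 CPM from 10 UMIs against 26.3 CPM from 54 UMIs. Pth1r had 1477 CPM against 927 CPM. Of the 12 hedgehog and PTHrP genes measured, 1 was higher and 6 lower.

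Several cartilage matrix genes were lower in Col10a1-high cells. Ucma had 52.0 CPM in Col10a1-high cells and 676 CPM in Col10a1-low cells, and was found in 18.7% and 69.9% of them. Epyc had 117 CPM against 415 CPM, and Fmod, encoding fibromodulin, had 781 CPM against 2474 CPM. The cartilage matrix list had 1 higher and 10 lower of 24, with a median log2 ratio of -0.82. Wif1, a Wnt inhibitor, had 56.1 CPM against 629 CPM and was found in 46.2% and 71.2% of cells, but 57.4% of its UMIs in Col10a1-low cells came from 1 cell. Outside the lists Itgbl1, an integrin-like secreted protein, was the lowest, with 6.27 CPM against 91.9 CPM.

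The BMP and TGF-beta list was even, with 7 genes higher and 6 lower of 29. Among those higher in Col10a1-high cells, Bmp2 had 178 CPM in Col10a1-high cells and 39.9 CPM in Col10a1-low cells, Bmp6 had 119 CPM against 44.7 CPM, and the BMP antagonist Nog had 97.0 CPM against 21.4 CPM. Frzb had 1559 CPM against 414 CPM. Outside the lists the transcription factor gene Irx5 had 160 CPM against 9.72 CPM (16.5-fold, 10.6 to 27.3), and Pcsk6, a proprotein convertase, had 859 CPM against 85.1 CPM.

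**Figure D4:**
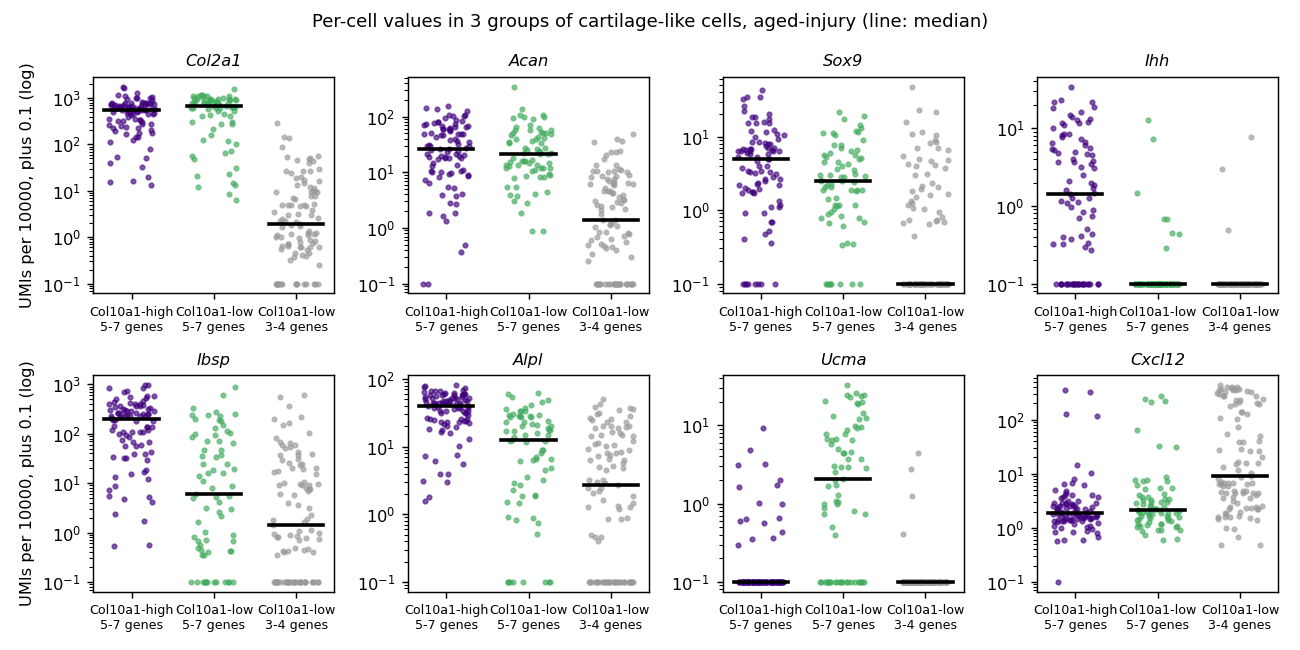
UMIs per 10000 plus 0.1 (y axis, log scale) of 8 genes in each cell of 3 sets of cartilage-like cells of aged-injury (x axis), 1 point per cell with a line at the median; the 9 Col10a1-high cells with 3 or 4 genes are not drawn. Ihh and Ibsp are highest in the Col10a1-high cells, Ucma in the Col10a1-low cells with 5 to 7 genes, and Cxcl12 in the Col10a1-low cells with 3 or 4 genes.

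Dividing cells were few, and 16 of 17 were Col10a1-low. At least 4 of 8 division genes were found in 17 of 274 cartilage-like cells, 6.20% (3.66% to 9.75%), against 2.91% of the other Ptprc-negative cells, whose depth was lower. Among cells with 5 to 7 cartilage genes there were 1 of 91 in the Col10a1-high set and 4 of 73 in the Col10a1-low set, with intervals that overlap. Another 12 were among the 101 Col10a1-low cells with 3 or 4 genes. Cdkn1a, the gene of the cell cycle inhibitor p21, had 954 CPM in Col10a1-high cells with 5 to 7 genes and 336 CPM in Col10a1-low ones.

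The level of the tdTomato transcript in cartilage-like cells was below that of the other Ptprc-negative cells as a whole and close to that of osteoblast-type cells. It had 52.2 CPM (46.9 to 57.8), against 71.2 CPM (70.0 to 72.3) in the other Ptprc-negative cells, 54.4 CPM (49.9 to 59.3) in osteoblast-type cells and 33.3 CPM (26.8 to 40.9) in Ptprc-positive cells. A UMI was found in 59.5% of cartilage-like cells and 43.8% of the others, but no order is read from this, since members were deeper. At 2000 UMIs per cell the share was 7.84% (4.92% to 11.7%) in 268 cartilage-like cells, with 6 shallower cells left out, 12.9% in the other Ptprc-negative cells, and 7.69% (4.16% to 12.8%) in Ptprc-positive cells. The sides of the Col10a1 split differed. Col10a1-high cells with 5 to 7 genes had 65.6 CPM (56.4 to 76.0) and Col10a1-low cells with 5 to 7 genes had 30.1 CPM (23.1 to 38.6), a ratio of 2.18 (1.62 to 2.96). At 2000 UMIs per cell the shares were 9.89% (4.62% to 17.9%) of 91 and 1.39% (0.0352% to 7.50%) of 72 such cells, with intervals that overlap. The CPM of these Col10a1-low cells lies within the interval of Ptprc-positive cells, which were not free of stromal RNA. In aged-injury 56.1% of Ptprc-positive cells showed at least 4 of the reticular genes. The tdTomato level of Ptprc-positive cells was 13.3 CPM in aged, 8.67 in naive, 5.69 in exhausted and 13.8 in control. No UMI of Cre was found in a member. All cells had been sorted for tdTomato, and that these cells descend from the Lepr-cre lineage of the marrow is not shown by the transcript.

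**Figure D5:**
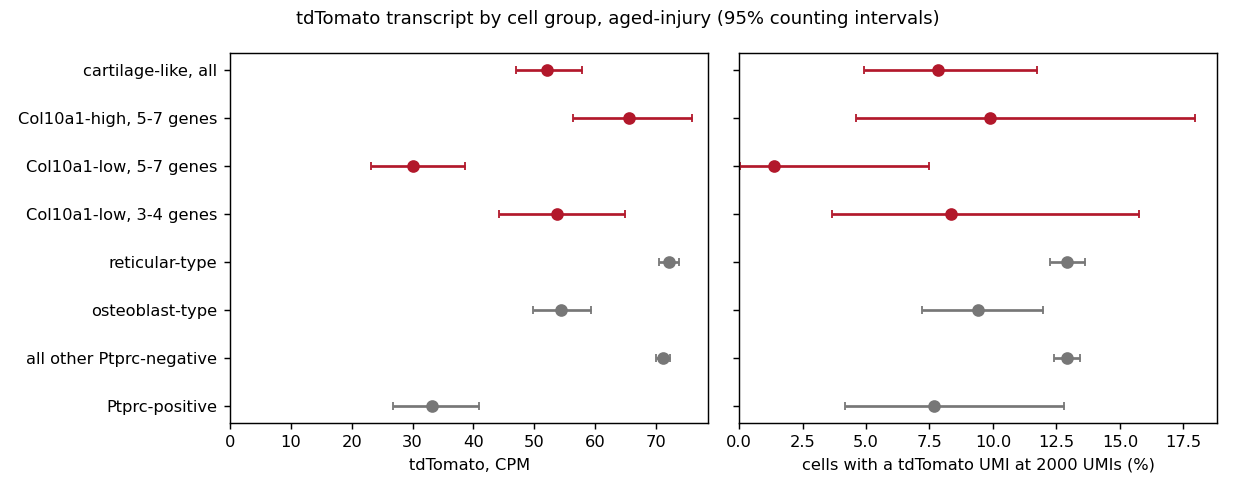
tdTomato transcript by cell group of aged-injury (rows), in CPM (left, x axis) and as the percentage of cells with a UMI when each cell is thinned to 2000 UMIs (right, x axis), with 95% counting intervals; cartilage-like sets are red and comparison sets grey. Col10a1-low cells with 5 to 7 genes sit at 30.1 CPM, beside the 33.3 of Ptprc-positive cells, of which 56.1% showed at least 4 of the reticular genes.

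The 7 cartilage-like cells of the young ablated libraries were not alike. In naive, 1 cell had 53819 UMIs with 815 of Col2a1, 515 of Acan, 3334 of Col10a1 and 104 of Ihh. Another had 15777 UMIs with 246 of Col2a1, 233 of Acan and 911 of Col10a1. The third naive cell had 3 of the genes, with 1 UMI of Col2a1 and 1688 of Col1a1. In exhausted, 1 cell of 5805 UMIs and 18.1% mitochondrial UMIs had all 7 genes, with 559 UMIs of Col2a1 and none of Col10a1. Another showed 6 genes, with 4 UMIs of Col2a1, 47 of Acan and 34 of Cnmd. The remaining 2 had no Col2a1 and 561 and 1399 UMIs of Col1a1. At least 5 of the genes were thus seen in 4 young cells after ablation, and Col10a1 in 2 of them.

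Genes outside the rule differed in how much of their RNA in aged-injury lay in these cells. Of the UMIs in all passing cells, members held 98.2% for Col10a1, 94.6% for Ihh, 93.3% for Col9a2, 87.0% for Chad and 75.4% for Comp. They held 35.2% for Col11a1, 26.1% for Col11a2, 43.8% for Matn4 and 40.8% for Fmod. The share was 19.9% for Sox9 and 5.35% for Mmp13. For the 7 rule genes, where the choice of members sets it, it was 88.5%. Outside members, Col2a1 had 1371 CPM in osteoblast-type cells of aged-injury, 1310 CPM in those of aged, 702 CPM in naive, 710 CPM in exhausted and 584 CPM in control. In reticular-type cells it had 55.4, 2.20, 10.3, 2.84 and 3.39 CPM in the same order of libraries. Col2a1 was found in 26.0% of the other Ptprc-negative cells of aged-injury and in 24.0% of its Ptprc-positive cells, where it had 127 CPM. Col10a1 had 73453 UMIs in aged-injury, 1 in aged, 4292 in naive, 17 in exhausted and 0 in control. Of the naive UMIs 98.9% came from its 3 members. Sox9 did not follow this pattern, with 79.3 CPM over Ptprc-negative cells in aged-injury, 83.2 in aged, 55.6 in naive, 55.1 in exhausted and 64.9 in control.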

How the data were processed

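tdTomato-positive cells of 5 mouse femur libraries, 1 per group, were measured on a BD Rhapsody instrument. The authors deposited a matrix of raw UMI counts for each library, in which all values were whole numbers. Per the submitters' processing notes, Seurat 5.1 and the GRCm39 build were used, with aligner, counter and cell calling rule not given in the sources used here. Libraries were read by gene symbol with Python 3.11.15, numpy 2.4.6, scipy 1.17.1 and pandas 2.3.3, and drawn with matplotlib 3.10.9. Barcodes were cell indices, and pairs of libraries shared 0 to 5 of them. Doublets were not removed.

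UMIs were summed over cells and divided by the total UMIs of those cells, in CPM. Genes with at least 5 CPM in either set were measured, and called at 2-fold. Shares have exact Clopper-Pearson 95% intervals, ratios exact conditional binomial intervals and levels exact Poisson intervals. Where no cell was found, the limit shown is 3 cells of the total. A gene at 0 in 1 set was set to 3 counts there. The ratio code was tested on simulated data. No p-value was computed, since 1 library per group leaves no replicates and cells are not replicates. For thinning, each cell was drawn down to 2000 UMIs.

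Members, gene lists and the Col10a1 boundary were chosen with earlier results of these data known. Genes named are from 21 lists, or among the 15 furthest above or below by ratio with at least 50 CPM and 100 UMIs in the higher set, found in at least 25% of its cells and with no cell over 20% of their UMIs. Promoters were taken from RefSeq on GRCm38.p6, a build other than that of the counts, and 9 of 13 genes searched had an entry. Alternatives changed the number of genes required, detection, filters, CPM minimum, fold, scaling and the Col10a1 boundary.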

Additional observations from a re-analysis of the deposited data

Results flagged for a closer look

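EGFP, which the genotype labels do not list, was counted in the aged-injury, naive, exhausted and control libraries. The aged matrix has no row for it, so it reads as 0 there, and the aged library gives no level to compare with. In osteoblast-type cells it had 1361 CPM in aged-injury, 789 CPM in naive, 789 CPM in exhausted and 415 CPM in control. In cartilage-like cells of aged-injury it had 129 CPM and was found in 19 cells, and in reticular-type cells it had 2.33 CPM. No explanation was tested.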

How the results depend on the processing

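The aged-injury library held more cartilage-like cells than any other under all 7 alternatives to the rule. Requiring 2 of the genes gave 840 cells in aged-injury, 2 in aged, 13 in naive, 12 in exhausted and 5 in control. Thinning gave 175 in aged-injury. Exhausted had 2 with 4 genes required, 2 with 2 UMIs required, 2 at under 10% mitochondrial UMIs and 2 after thinning.

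Counts of genes higher and lower than in the other Ptprc-negative cells were 425 and 1221 at 20 CPM or more, 3017 and 3500 with no minimum, and 423 and 1005 at 3-fold. At 20 CPM they were 489 and 1401 against reticular-type cells and 655 and 377 against osteoblast-type cells. Col10a1-high against Col10a1-low gave 863 and 763 within cells with 5 to 7 genes, against 494 and 1298 over all members. Of 433 gene values recomputed, 9 crossed 2-fold and none past 2-fold changed sign; Vegfa was at -0.85 (log2) relative to the median ratio. Of 117 counts and shares recomputed, 45 moved beyond a set margin. Of 398 list medians, 23 crossed 2-fold, and another 3 that were past 2-fold changed sign. Adipocyte markers against osteoblast-type cells were at -0.94 at 20 CPM. Within cells with 5 to 7 genes, reticular stroma genes were at 0.26 and blood cell markers at 0.39 between the sides of the Col10a1 split. Causes were not tested.

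Members held 90.7% of the UMIs of the 7 genes when 2 were required and 88.1% when 4 were, and 98.6% and 96.4% of Col10a1. Thinned tdTomato shares were 7.84% in members and 12.9% in the other Ptprc-negative cells. No replicate could be left out. No paired analysis was possible because each group is 1 library.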
